A study of Mus musculus with 10 samples.

Results

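Untreated mouse embryonic fibroblasts (MEF) lacking p53 were compared with untreated wild-type MEF, using 3 of the 10 libraries of the series: 1 from p53-/- cells and 2 from wild-type cells. The libraries were chosen by their genotype and treatment labels alone. Wild-type MEF were of strain C57BL/6J and p53-/- MEF carried the germline null allele Trp53tm1Tyj, and all 3 cultures grew in DMEM with 10% FBS and received no compound. The other MEF libraries, 1 p53-/- and 2 wild type, were treated for 24 hr with 1 μM CBL0137, a DNA-binding compound that traps the histone chaperone FACT, and the remaining libraries came from lung. By the study's methods, cells of each embryo were plated separately and cultured for a limited number of passages. The labels give no passage and tie no library to an embryo, so the spread between the wild-type libraries may be technical.

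p53, encoded by Trp53, is a transcription factor that induces genes of growth arrest, DNA repair and apoptosis after DNA damage. Through its target p21 and the DREAM complex it also lowers the transcription of genes for DNA replication and mitosis, many of which hold a cell cycle homology region (CHR) or an E2F site in the promoter. MEF without p53 are known to escape the senescence that stops wild-type MEF in culture.

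The files gave a read count for each Ensembl gene identifier, and most of the reads listed under an identifier lay on the strand opposite to its gene. Identifiers with at least 50 exon bases opposite an exon of another gene held 76.6% and 75.8% of the counts of wild-type libraries 1 and 2 and 75.3% in p53-/-, against 28.7% of all exon bases. Genes that fibroblasts express highly and that face no other exon held few counts under their own name. Actb, cytoplasmic actin, had 10, 27 and 16 counts in wild-type library 1, wild-type library 2 and p53-/-, the order used for values of 3 libraries throughout, and Vim, the intermediate filament vimentin, had 14, 25 and 10. An identifier is therefore given below with the gene opposite to it in parentheses, and which of the 2 strands gave a particular read was not resolved by the counts.

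Between 0.789% and 1.08% of the reads of a file were assigned to identifiers, and after removal of chromosomes X and Y and of unplaced identifiers the counts kept were 125434, 178591 and 159810. The targeted locus gave no check of the genotype. Trp53 (chr11:69580359-69591873, plus strand, GRCm38) had 0 counts in all 3 libraries and Wrap53, its head-to-head neighbour, had 0, 1 and 0, at or under the floor of 3 counts, which was 23.9, 16.8 and 18.8 CPM (counts per 1000000 counts kept). The exons of both genes are separated by 103 bases and share none. Tsix, the X-linked antisense partner of Xist, had 181, 238 and 0 counts, so the genotype and the sex of the embryo cannot be told apart, and genes of both sex chromosomes were left out. Wild-type library 2 stood apart at Lars2, with 5912 counts against 608 and 889. The wild-type libraries differed by more than counting noise (chi-square per degree of freedom 2.81, and 1.69 without Lars2), so they were not 1 library deposited again, and were used as the 2 replicates the labels give.

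With 2 wild-type libraries and 1 p53-/- library, no identifier passed the test. Of 2049 identifiers tested by edgeR's quasi-likelihood test, 0 had an adjusted p below 0.05 (0% called), the smallest adjusted p was 0.0966, and 228 had an unadjusted p below 0.05. Of these 228, 97 were higher in p53-/- (4.73% of all tested) and 131 were lower (6.39%). DESeq2 on the same identifiers called 4 lower (0.195%) and 0 higher, with 59 at an unadjusted p below 0.05. The p53-/- value lay above both wild-type values for 37.6% of the identifiers tested and below both for 34.7%. Among the 1182 identifiers with a mean of at least 100 CPM, the median absolute log2 difference was 0.27 between the wild-type libraries, and 0.38 between p53-/- and either of them. The count of 0 depended on the settings of the fit, since the same test with library totals in place of TMM factors called 60 higher and 56 lower. With library totals the prior degrees of freedom, by which edgeR shares the spread between identifiers, came out infinite, beside 7.17 in the reported fit. The spread came from the wild-type pair alone, with 1 residual degree of freedom, and the single p53-/- library was assumed to vary like them. An exact permutation test of 1 library against 2 cannot go below p = 0.333.

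**Figure D1:**
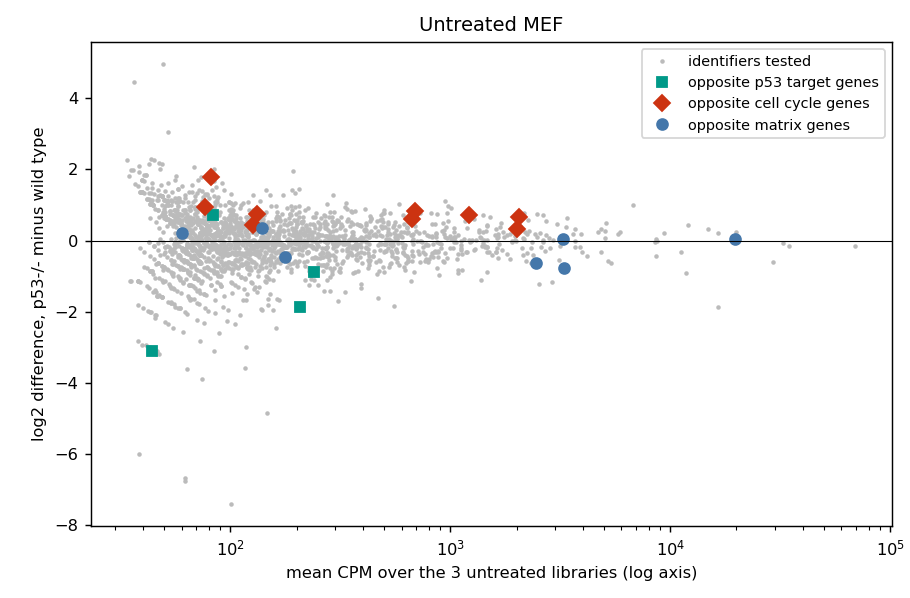
Log2 difference between p53-/- and wild-type MEF (vertical axis) against the mean CPM over the 3 untreated libraries (horizontal, log axis) for the 2049 identifiers tested, 1 point each. Squares mark identifiers opposite p53 target genes, diamonds those opposite cell cycle genes and circles those opposite matrix genes. All 9 diamonds lie above 0, 2 of them having passed the low-count filter through p53-/- alone, and 3 of the 4 squares lie below it, and 0 of the points has an adjusted p below 0.05.

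Counts opposite p53 target genes were lower in the p53-/- library. Of the 51 p53 targets in the files, 7 faced an identifier, 8 identifiers in all, and Cdkn1a, Mdm2, Bax and Bbc3 were not among them. Cdkn1a shares 273 exon bases with an annotated gene on the other strand, which was not analysed here. The 8 identifiers together held 81, 113 and 54 counts, or 646, 633 and 338 CPM of the counts kept, and the ratio of p53-/- to wild type was 0.530 with a 95% interval of 0.384 to 0.719 that covers counting error only. The p53-/- library was below both wild-type libraries in this sum. Under their own identifiers the p53 targets differed less, with 58, 82 and 64 counts, or 462, 459 and 400 CPM. Of the 2 tested in this way, 1 lay below both wild-type values and 0 above both, beside 34.7% and 37.6% of all identifiers tested. In bulk RNA, fewer cells with a transcript and less of it per cell cannot be told apart.

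Ctsa (chr2:164832873-164841032), which faces Pltp by 495 exon bases, held much of this difference. Pltp encodes the phospholipid transfer protein, a known p53 target. Ctsa (Pltp, Neurl2) had 35, 38 and 11 counts, or 299, 246 and 74.1 CPM after TMM scaling. The p53-/- value was far below both wild-type values, at a log2 difference of -1.86 ± 0.43 (SE; edgeR adjusted p = 0.174).

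Notch1, the receptor of the Notch pathway, faces 2 of the identifiers. The first, 0610009E02Rik (Notch1), had 33, 44 and 23 counts, with a log2 difference of -0.87 ± 0.35 (SE; edgeR adjusted p = 0.418). The second, Gm13568 (Notch1), had 4, 14 and 1 counts, a value 9.85-fold lower in p53-/- with a counting interval of 1.55 to 410. Both were below both wild-type libraries and neither passed the test. Acp2 (Ddb2), opposite the gene of a DNA damage recognition protein of nucleotide excision repair, went the other way, with 6, 13 and 17 counts and a log2 difference of 0.72 ± 0.54 (SE; edgeR adjusted p = 0.639). The other 4, opposite Ei24, Tap1, Tigar and Plk3, had between 0 and 3 counts in each library. Over all 8, p53-/- was below both wild-type libraries in 4 and above both in 2, beside 21.6% and 34% of the 11350 identifiers with any count.

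**Figure D2:**
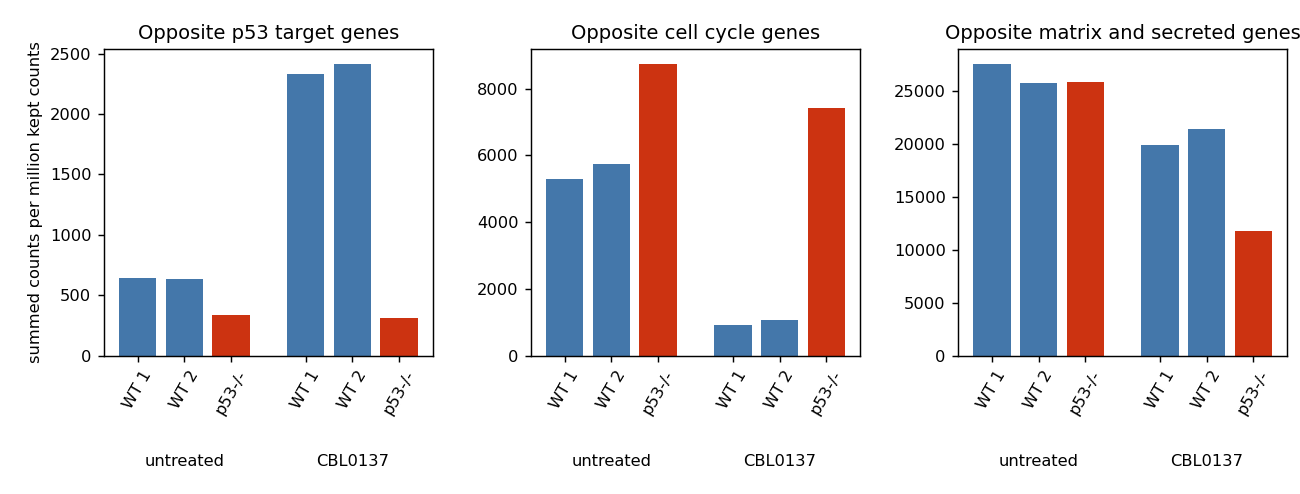
Counts summed over all identifiers opposite the genes of a list, as CPM of the counts kept, in each MEF library (blue, wild type; red, p53-/-), untreated on the left of each panel and after CBL0137 on the right. Untreated p53-/- cells had 338 against 646 and 633 opposite p53 targets and 8742 against 5286 and 5734 opposite cell cycle genes. The matrix sums of 25862 against 27560 and 25729, most of each from Syn3 (Timp3), lay together.

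Counts opposite genes of the cell cycle were higher in the p53-/- library. Of the 89 genes listed, 23 faced an identifier, 25 identifiers in all, which together held 663, 1024 and 1397 counts. As CPM of the counts kept these were 5286, 5734 and 8742, and the ratio of p53-/- to wild type was 1.58 with a counting interval of 1.47 to 1.69. Both wild-type libraries lay together and p53-/- above them. Without any filter, p53-/- was above both wild-type libraries for 14 of the 25 identifiers and below both for 2. Of the 11350 identifiers with any count, 34% lay above both and 21.6% below both. Among the 25, 4 had no count in any of the 3 libraries. Of the 25, 9 passed the filter on low counts, 2 of them (Gm26625 and Ints8) through the p53-/- library alone. The other 7 had log2 differences from 0.33 to 0.84, and 0 of the 9 passed the test (smallest adjusted p 0.174).

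Among genes of mitosis, Exosc9 (Ccna2) lies at chr3:36552606-36565727 and faces cyclin A2, the cyclin of S phase and mitotic entry, by 510 exon bases. It had 114, 158 and 245 counts, or 973, 1024 and 1650 CPM. The wild-type libraries were close and p53-/- lay above both, at a log2 difference of 0.72 ± 0.17 (SE; edgeR adjusted p = 0.174). Lcorl (Ncapg) faces a subunit of condensin, which compacts chromosomes in mitosis, and had 58, 92 and 146 counts, with a log2 difference of 0.84 ± 0.21 (SE; edgeR adjusted p = 0.190). Cdc23 (Kif20a) faces a kinesin that acts in cytokinesis, and had 182, 289 and 405 counts, with a log2 difference of 0.67 ± 0.17 (SE; edgeR adjusted p = 0.218). Cdc23 is itself a subunit of the anaphase-promoting complex, so both strands of this locus carry cell cycle genes. Of the mitotic identifiers below the filter, Elovl1 (Cdc20) had 0, 1 and 4 counts and Rccd1 (Prc1) had 1, 2 and 3.

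Among genes of DNA replication, Gm10143 (Fen1) faces the flap endonuclease that trims Okazaki fragments, and had 193, 314 and 345 counts, with a log2 difference of 0.33 ± 0.18 (SE; edgeR adjusted p = 0.550). Ubxn6 (Chaf1a) faces the large subunit of chromatin assembly factor 1, and had 54, 104 and 131 counts, with a log2 difference of 0.62 ± 0.25 (SE; edgeR adjusted p = 0.416). In both, the second wild-type library lay between the first and p53-/-. Eif4a2 (Rfc4), opposite a subunit of the clamp loader, had 13, 16 and 27 counts, and Gse1 (Gins2), opposite a subunit of the replicative helicase, had 12, 19 and 23. Ints8 (Ccne2), opposite cyclin E2, had 6, 10 and 17 counts. Gm26625 (Ezh2), opposite the histone H3 lysine methyltransferase of the Polycomb complex PRC2, had 6, 6 and 23 counts, with a log2 difference of 1.78 ± 0.53 (SE; edgeR adjusted p = 0.244). It was the largest of the 9 differences and rested on few reads.

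**Figure D3:**
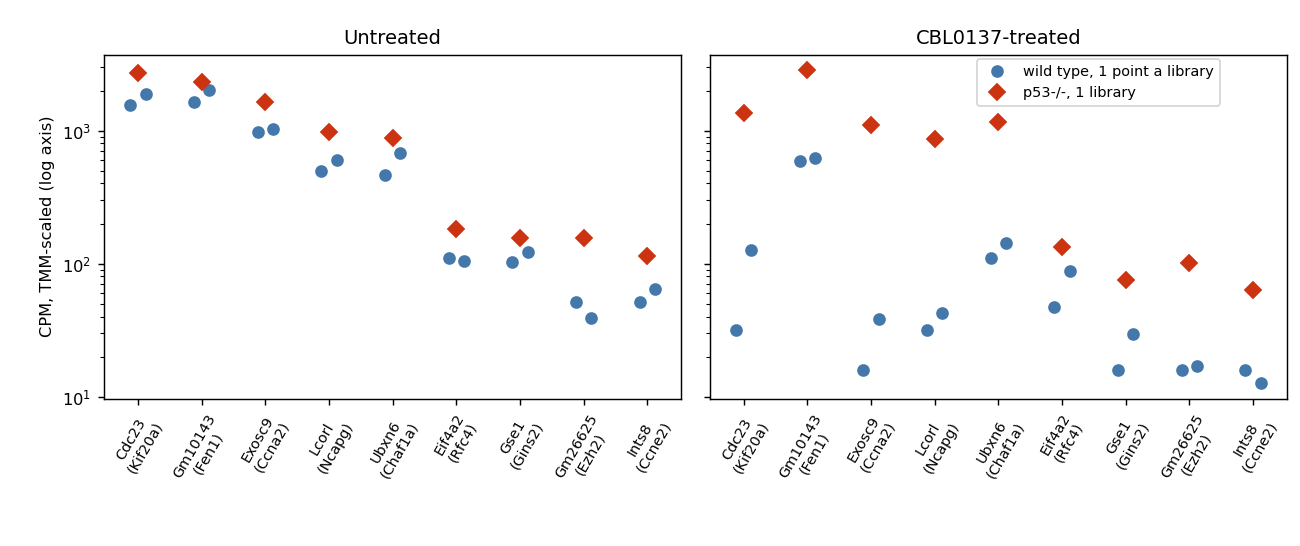
CPM after TMM scaling (log axis) of the 9 tested identifiers opposite cell cycle genes, the opposite gene in parentheses, in untreated (left) and CBL0137-treated MEF (right). Circles are single wild-type libraries and diamonds the single p53-/- library, which lies above both circles for all 9 identifiers in both panels. Gm26625 and Ints8 passed the low-count filter through untreated p53-/- alone.

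Promoters of 2 of these genes are shown because they hold the elements through which cell cycle genes are known to be regulated. RefSeq promoters of GRCm38.p6, each from 250 bases before to 50 after a start, were given for 5 of the 9 genes (Chaf1a, Ezh2, Fen1, Ncapg and Rfc4) and not for Ccna2, Kif20a, Ccne2 and Gins2. The CHR, TTTGAA, searched on both strands, was in the promoter of Ncapg, in 1 of the 2 promoters of Fen1 and in 17.9% of all 32851 promoters. An E2F site, TTTCCCGC or TTTGGCGC on either strand, was in those of Ncapg and Ezh2 and in 1.57% of all. Both strands of each promoter below were searched, and capitals mark the matches. The Ncapg promoter, chr5:45669675-45669974 on the plus strand, holds a CHR and further on an E2F site on the other strand, and the Ezh2 promoter, chr6:47594981-47595280 on the minus strand, holds an E2F site.
Ncapg: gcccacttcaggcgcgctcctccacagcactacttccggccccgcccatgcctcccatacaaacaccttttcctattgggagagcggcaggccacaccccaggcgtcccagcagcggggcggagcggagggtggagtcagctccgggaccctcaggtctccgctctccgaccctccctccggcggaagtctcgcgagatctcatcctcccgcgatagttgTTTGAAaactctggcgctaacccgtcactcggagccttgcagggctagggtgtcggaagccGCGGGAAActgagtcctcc
Ezh2: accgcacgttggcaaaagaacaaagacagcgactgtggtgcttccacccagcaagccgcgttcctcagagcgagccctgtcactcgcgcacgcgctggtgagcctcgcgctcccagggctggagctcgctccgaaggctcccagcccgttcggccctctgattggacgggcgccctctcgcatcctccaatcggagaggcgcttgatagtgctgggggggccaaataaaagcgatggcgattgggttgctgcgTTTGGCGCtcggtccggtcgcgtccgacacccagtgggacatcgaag
The letters alone do not show that a factor binds there. The p53 response element, by name, was in 4.09% of all promoters and in 0 of the 2 given for Pltp and Notch1.

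Counts opposite genes of the extracellular matrix and of secreted proteins differed little in sum, at 27560, 25729 and 25862 CPM, a ratio of 0.976 with a counting interval of 0.940 to 1.01. Most of each sum came from Syn3 (Timp3), with 17786, 17123 and 18622 CPM, so the ratio mostly describes that identifier. Single genes went different ways. Syn3 (Timp3), opposite an inhibitor of metalloproteinases, had 2231, 3058 and 2976 counts, and Gm15270 (Ccn2), opposite the connective tissue growth factor, had 357, 526 and 497. Their log2 differences were 0.04 ± 0.18 and 0.05 ± 0.18 (SE), within the spread, and both turned negative when library size was taken from all reads of the file.

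Apol7d (Fn1), opposite fibronectin, had 469, 560 and 335 counts, or 4003, 3629 and 2256 CPM, with a log2 difference of -0.76 ± 0.18 (SE; edgeR adjusted p = 0.184). Gm9913 (Fbn1), opposite fibrillin 1, had 352, 390 and 266 counts, with a log2 difference of -0.62 ± 0.19 (SE; edgeR adjusted p = 0.256). In both, the p53-/- value lay below both wild-type values. Of the 7 identifiers tested for this list, 3 lay below both and 2 above both, and 0 passed the test. These shares were near those over all identifiers tested, 34.7% below both and 37.6% above both.

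Under their own identifiers, where counts were few, the matrix genes held 282, 565 and 215 counts in sum, or 2248, 3164 and 1345 CPM. Of 19 of these genes tested, 15 were below both wild-type values in p53-/-, beside 34.7% of all identifiers tested. Their median log2 difference was -1.09, with 0 passing the test. Col1a1, the main chain of type I collagen, had 19, 43 and 6 counts, with a log2 difference of -2.45 ± 0.58 (SE; edgeR adjusted p = 0.179). Col6a1, a chain of type VI collagen, had 15, 21 and 4, with -2.26 ± 0.62 (SE; edgeR adjusted p = 0.224), and Thbs1, thrombospondin 1, had 26, 53 and 18. The genes named here under their own identifiers were chosen after their values were seen. Both collagen genes lay well below the wild-type values, whereas Igfbp4, an insulin-like growth factor binding protein, was the only gene of the 19 with a positive difference, at 8, 3 and 16 counts. Outside the list, Eef1a1, a translation elongation factor, had 16, 35 and 13 counts, and wild-type library 2 was the highest at Actb, Vim and Eef1a1. Own identifiers of other lists went different ways, and those of the p53 targets are given above. Of the 11 cell cycle genes tested in this way 6 lay above both wild-type values and 2 below both. Of 9 contractile genes 3 lay above both and 6 below both. All 3 senescence genes tested lay above both. All 5 fibroblast markers tested lay below both, but Col1a1, Col1a2, Col3a1 and Fbn1 among them are already counted in the matrix list. Over all identifiers tested, 37.6% lay above both and 34.7% below both. The part of the libraries' strand purity in the difference was not tested.

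**Figure D4:**
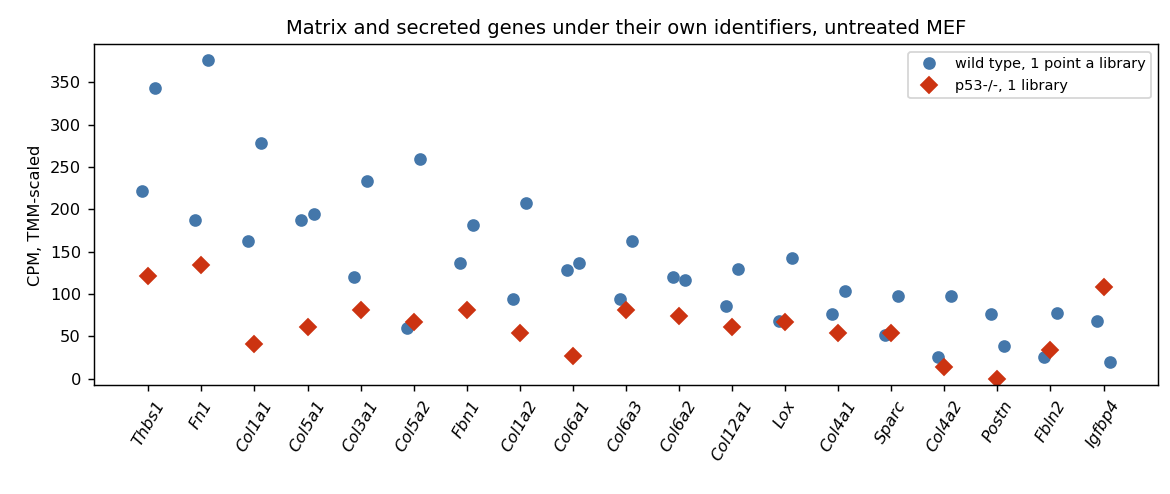
CPM after TMM scaling of the 19 matrix and secreted genes tested under their own identifiers in untreated MEF, where circles are single wild-type libraries and diamonds the p53-/- library. The diamond lies below both circles for 15 genes, beside 34.7% of all identifiers tested, and wild-type library 2 (right circle) is often the highest.

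The remaining lists gave little. Interferon response genes, none tested for want of counts, held 6, 20 and 23 counts opposite 9 genes, a ratio of 1.68 with a counting interval of 0.917 to 3.07, which was 3.01 against wild-type library 1 alone and 1.29 against library 2 alone. The largest part lay at the divergent pair Parp9 and Dtx3l, where the identifier Dtx3l (Parp9) had 0, 2 and 8 counts and Parp9 (Dtx3l) had 2, 4 and 6. Opposite senescence genes, 45, 69 and 79 counts were held by 4 identifiers, chiefly 1700006J14Rik (Hmga2), opposite an architectural chromatin protein, with 40, 56 and 70 counts and a log2 difference of 0.42 ± 0.25 (SE; edgeR adjusted p = 0.585). Under its own name Cdkn2b, the p15 inhibitor of cyclin-dependent kinases, had 10, 13 and 31 counts. This gene was chosen after its values were seen.

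Opposite the Hox genes, which keep the positional identity of fibroblasts, 122, 184 and 148 counts gave a ratio of 0.920 with a counting interval of 0.751 to 1.12. Hoxa11os (Hoxa11) had 34, 52 and 28 counts, Hoxb3os (Hoxb3, Hoxb2) had 44, 79 and 57, and Hoxaas3 (Hoxa3, Hoxa7, Gm28308) had 19, 25 and 24. The values of Hoxaas3 nearly coincided after scaling, those of Hoxb3os overlapped, and Hoxa11os lay below both wild-type values, at a log2 difference of -0.74 ± 0.34 (SE; edgeR adjusted p = 0.466). Gm26586 (Tpm4), the tested identifier of the contractile genes, had 58, 76 and 69 counts. Of 16 fibroblast markers, 1 had an opposite identifier, Fbn1, given above. Under their own identifiers the 16 held 80, 185 and 54 counts. The 5 tested lay below both wild-type values in p53-/-, beside 34.7% of all identifiers tested, with 0 passing the test. Among them, Col1a1, Col1a2, Col3a1 and Fbn1 are also on the matrix list. Opposite the markers of other cells the sums were 0, 1 and 0 counts for endothelium, 4, 5 and 1 for epithelium, 3, 5 and 0 for blood, 0, 2 and 1 for nerve and 0 in all 3 libraries for muscle. Under their own identifiers the same lists held 3, 3 and 1 counts for endothelium, 0, 3 and 3 for epithelium, 33, 78 and 50 for blood, 82, 90 and 125 for nerve and 39, 55 and 73 for muscle. As CPM of the counts kept, p53-/- was above both wild-type libraries for nerve (654, 504 and 782) and muscle (311, 308 and 457), and the part of other cells in the results was not tested.

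The smallest adjusted p, 0.0966 by edgeR, was shared by Gm26776 (Ccdc3), Gm26751 (Nynrin), Copg2 (Mest), Gm16564 (Kif26b) and Olfr1317, all lower in p53-/-. Except for Gm26776 and Olfr1317, these were chosen after their values were seen. Gm26751 (Nynrin), at chr14:55864311-55874735, had 376, 473 and 199 counts, or 3210, 3065 and 1340 CPM, and a log2 difference of -1.23 ± 0.18 (SE). Copg2 (Mest), at chr6:30747554-30896794, faces the imprinted gene Mest, of the hydrolase family, by 912 exon bases, and had 408, 562 and 234 counts, or 3483, 3642 and 1576 CPM, and a log2 difference of -1.18 ± 0.18 (SE). In both the wild-type libraries nearly coincided and p53-/- lay far below.

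Gm16564 (Kif26b) had 96, 98 and 30 counts, with a log2 difference of -1.83 ± 0.29 (SE). DESeq2 called Gm26751 and Copg2 (adjusted p = 0.00229 for each), together with Prss23os (Prss23), opposite a serine protease, and Gm17300 (Snhg3), opposite a host gene of small nucleolar RNAs. Prss23os had 1574, 2256 and 1109 counts, with a log2 difference of -0.91 ± 0.19 (SE; edgeR adjusted p = 0.169). Gm17300 had 3704, 5334 and 3210 counts, with a log2 difference of -0.61 ± 0.19 (SE; edgeR adjusted p = 0.256). These 4 were called lower by DESeq2 and not by edgeR with TMM, and edgeR with library totals in place of TMM called all 4. The fit with library totals had infinite prior degrees of freedom, so it gave no separate spread to each identifier.

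The 5 smallest and the 5 largest log2 differences rested on low counts and were named for their size, so their values are a description. Olfr1317, an olfactory receptor gene with no opposite exon, had 17, 24 and 0 counts, 7.44-fold lower in p53-/- when that library is set at a floor of 3 counts. Folds at this floor leave out the counting error of the wild-type values. Tesk1 (Cd72), a testis-associated protein kinase, had 9, 17 and 0 (4.63-fold lower at the floor) and Gm17276 (Notch3) had 15, 9 and 0 (4.61-fold lower at the floor). Postn, the matrix protein periostin, had 9, 6 and 0 (2.86-fold lower at the floor). Gm26776 (Ccdc3) had 25, 34 and 1, a ratio of 32.3 with a counting interval of 5.57 to 1296. These 5 were at or near 0 in p53-/- only. At the other end, Prmt7 (Smpd3), an arginine methyltransferase gene opposite a sphingomyelinase gene, had 0, 1 and 21 counts, 38.4-fold higher with a counting interval of 6.17 to 1588. Nap1l5, an imprinted gene, had 1, 0 and 15 counts, 27.4-fold higher with an interval of 4.22 to 1154. The other 3 were 6330403N20Rik with 1, 3 and 19 counts, the kinetochore gene Cenpf with 2, 3 and 14 and the metalloreductase gene Steap2 with 1, 3 and 11.

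Of the 5 identifiers with the most counts, Gm17300 (Snhg3) is given above and the other 4 differed less. Gm26825 (Gm15459) had 8042, 11569 and 9634 counts, Gm20721 (Gnas), opposite the stimulatory G protein subunit, had 4150, 5654 and 4780, and Ccdc107 (Rmrp), opposite the RNA of RNase MRP, had 3776, 5266 and 4669. Ap3m1 (Vcl), opposite the focal adhesion protein vinculin, had 2125, 2973 and 3315. Their log2 differences were -0.15, -0.16, -0.08 and 0.26, each with an SE of 0.18, and none passed the test.

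The libraries treated with CBL0137 share no library with the untreated comparison, so they gave a second look at the same genotypes, under the compound. They were not free of the same limit, since Tsix had 93, 281 and 1 counts there, and the labels do not say whether the same embryos were used. There 106 of 3357 identifiers tested were called higher in p53-/- (3.16%) and 100 lower (2.98%). Of the 97 identifiers higher in untreated p53-/- at an unadjusted p below 0.05, 95 could be tested after treatment. In 72 of these 95 (75.8%) the sign was kept, and in 62 (65.3%) the p53-/- value lay above both wild-type values. Of the 131 lower, 125 could be tested, 103 (82.4%) kept the sign and 86 (68.8%) lay below both. Over all identifiers, whatever their p, the sign was kept in 54.5% of those higher and 65.7% of those lower. Of those higher untreated, 44.2% lay above both wild-type values after treatment, and of those lower, 49.5% lay below both. Whatever their untreated sign, 34% of the identifiers lay above both after treatment and 40.4% below both.

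Opposite cell cycle genes, where no untreated identifier passed the test, 5 of the 9 passed it after treatment, all higher in p53-/-. The 25 identifiers held 910, 1062 and 7413 CPM after treatment. Exosc9 (Ccna2) had 15.8, 38.0 and 1093 CPM and was higher in p53-/-, at a log2 difference of 5.08 (edgeR adjusted p = 1.91e-05). Lcorl (Ncapg) had 31.7, 42.2 and 857 CPM, with 4.44 (edgeR adjusted p = 6.02e-05). The counts behind these values were 1, 9 and 534 for Exosc9 and 2, 10 and 419 for Lcorl. In treated wild-type library 1 both lay under the floor of 3 counts. The counts kept in the treated libraries were 64824, 262613 and 524597. The wild-type values of both identifiers were much lower than in untreated cells, where they ranged from 495 to 1024 CPM. All 9 identifiers of this list tested in untreated cells lay above both wild-type values after treatment.

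Opposite p53 targets the 8 identifiers held 2329, 2414 and 309 CPM after treatment. Ctsa (Pltp, Neurl2) had 1646, 1880 and 133 CPM, with a log2 difference of -3.73 (edgeR adjusted p = 9.67e-05), and 0610009E02Rik (Notch1) had 602, 537 and 102, with -2.46 (edgeR adjusted p = 0.00424). Gm13568 (Notch1) was lower as well, with -3.17 (edgeR adjusted p = 0.0335), and Acp2 (Ddb2) was not called, with 0.29 (edgeR adjusted p = 0.846). Among the 4 tested, these 3 also lay below both wild-type values in untreated cells. Psmb9 (Tap1), too low to test untreated, lay below both in CPM in either condition, with 2, 3 and 1 counts untreated and 2, 15 and 4 treated. Olfr1317 had 20, 35 and 0 counts after treatment and Gm17276 (Notch3) had 17, 72 and 1, low again in p53-/-. Tesk1 (Cd72) had 6, 3 and 21 counts, and as CPM after TMM scaling its p53-/- value lay between the wild-type values.

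**Figure D5:**
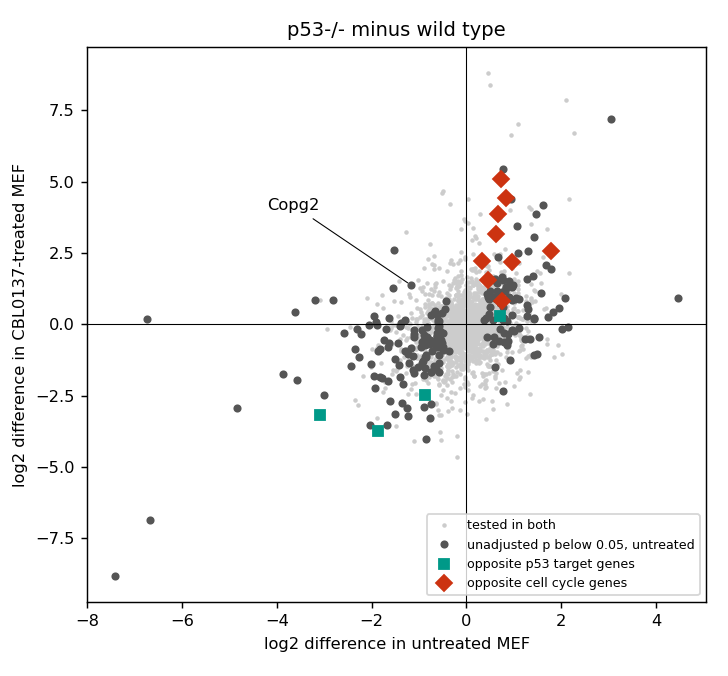
Log2 difference between p53-/- and wild type in CBL0137-treated MEF (vertical axis) against that in untreated MEF (horizontal axis), 1 point for each identifier tested in both. Dark points had an unadjusted p below 0.05 in untreated cells, of which 72 of 95 higher and 103 of 125 lower kept the sign. Diamonds mark identifiers opposite cell cycle genes and squares those opposite p53 targets, and Copg2 (Mest) lies below 0 in untreated and above 0 in treated cells.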

How the data were processed

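Total RNA depleted of ribosomal RNA was sequenced from strand-specific libraries, and the authors deposited raw counts of reads per Ensembl gene. The submitters' processing notes name TopHat2 2.0.9, HTSeq and GRCm38 (mm10), and the strand setting of the counting is not given in the sources used here. Lines of unassigned reads (98.9% to 99.2% of a file) were removed. GENCODE M21 placed 36429 of 38293 identifiers (95.1%), and 2677 on X or Y were left out. A gene was taken as opposite when at least 50 exon bases faced each other.

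Untreated p53-/- (n = 1) and wild-type (n = 2) counts were fitted in edgeR 4.0.16 (R 4.3.3) by the quasi-likelihood test, with TMM, filterByExpr (minimum count 10, total 15) and Benjamini-Hochberg adjustment over 2049 identifiers, at a threshold of 0.05. With 1 p53-/- library the filter can be passed through it alone, as 209 did. DESeq2 1.42.0 was an alternative. Standard errors are the absolute log2 difference divided by the square root of F. Ratios of summed counts have exact 95% Poisson intervals, which cover counting error only. Floors allow for counting error only in the library that is set at the floor. Simulated data with large planted differences and a common spread were used to check the sign and size of the estimates only. Smaller differences, like most of those above, were not simulated.

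Named were Trp53 and Wrap53, up to 4 identifiers of each list and the 5 with the most counts, and, as fewer than 5 passed the test in either direction, the 5 largest differences in each. Others are said to be chosen after their values were seen, or are further members of a list. The members and lists were chosen with earlier results of these data known. The alternatives tried are other normalizations, filters, tools and sets of libraries. The lung files were not used here.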

Additional observations from a re-analysis of the deposited data

Results flagged for a closer look

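Of 52 identifiers named in the text or on a list, 3 had a genotype difference that itself differed between treated and untreated MEF, by the interaction term of an edgeR fit on all 6 MEF libraries (2827 identifiers, 5 at an adjusted p below 0.05 and 304 at an unadjusted p below 0.05). For Exosc9 (Ccna2) the log2 difference was larger by 4.40 after CBL0137 (edgeR adjusted p = 0.0106), and for Lcorl (Ncapg) by 3.65 (edgeR adjusted p = 0.0253). Copg2 (Mest) turned, from -1.18 in untreated to 1.38 in treated MEF, an interaction of 2.66 (edgeR adjusted p = 0.0490), with counts of 17, 43 and 277 after treatment against 408, 562 and 234 before. As CPM after TMM scaling, Copg2 had 3483, 3642 and 1576 untreated and 269, 182 and 567 treated, lower after treatment in both genotypes. The treated wild-type counts were only 1 and 9 for Exosc9 and 2 and 10 for Lcorl. In each condition the p53-/- group was 1 library, so an effect of that library and of the genotype cannot be told apart.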

How the results depend on the processing

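No identifier passed edgeR's test with upper quartile normalization, a minimum count of 20, all 6 MEF libraries in 1 fit (also without MEF_wt_untreated replicate 1 or 2), unplaced identifiers kept or mitochondrial ones left out, where 68 to 239 had an unadjusted p below 0.05. Calls did appear elsewhere. Library totals without TMM gave 60 higher and 56 lower, with 5 opposite cell cycle genes, 1 opposite p53 targets and 2 opposite genes of the other lists. No filter gave 29 higher and 31 lower, with 3, 1 and 1. In both, the prior degrees of freedom, by which edgeR shares the spread between identifiers, came out infinite, beside 7.17 in the reported fit. DESeq2 called 4 lower, and 7 at its default filtering level, 1 of them opposite the other lists, Apol7d (Fn1). X and Y kept gave 1 lower, Tsix. All reads of the file as library size, chosen after seeing the data like DESeq2's default level and all alternatives of the summed counts, gave 3 lower and shifted all identifiers by -0.20 (median log2), with a positive difference still at all 9 cell cycle identifiers, 2 of which passed the filter through p53-/- alone.

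Under that scaling the log2 ratios of the sums were -1.17 opposite p53 targets (-0.92 reported, -0.97 with TMM), 0.41 opposite cell cycle genes (0.67 reported) and -0.29 opposite matrix genes (-0.04 reported). Without 1 wild-type library or the other they ranged from -0.93 to -0.90, from 0.61 to 0.73 and from -0.092 to 0.0074, and for matrix genes under their own identifiers from -1.23 to -0.74. The cause of these shifts was not tested.

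Signs reversed for differences near 0. Syn3 was -0.15 and Gm15270 -0.15 with all reads of the file. Without MEF_wt_untreated replicate 1, Gm15270 was -0.026 (-0.038 in the 6-library fit) and 5730596B20Rik (Hoxa3) 0.055 (0.044), also 0.011 with library totals. Without replicate 2, Hoxb3os was 0.032 (0.031). Hoxaas3 was 0.020 with upper quartile, 0.023 with no filter, 0.025 with X and Y kept, 0.022 with unplaced kept, 0.017 with mitochondrial left out and 0.041 with library totals. Kept signs in treated cells numbered 158 to 176 without a treated wild-type library (175 reported), and an overlap of 1 base raised the share of counts facing an exon in p53-/- to 78.1%. No paired analysis was possible because the groups share 1 replicate number, given in accession order. No fold was computed for Trp53 and Wrap53, so they have no alternatives. About 1% of reads were assigned, which limits what could be detected for most genes.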
